A study of Drosophila melanogaster with 6 samples.

Results

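Neuropeptides are short signalling molecules that neurons and endocrine cells cut from larger precursor proteins, store in dense-core vesicles and release into the body fluid or onto nearby cells. Most of them act through G protein-coupled receptors on the target cell, and in insects they set feeding, water balance, gut movement, growth and moulting. In the fly larva they come from the brain and ventral nerve cord, from enteroendocrine cells scattered along the midgut, and from glands such as the corpora cardiaca and the Inka cells of the trachea.

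The genes described here are the neuropeptide precursors and neuropeptide receptors of Drosophila melanogaster, picked by symbol from the gene-level count files. The list named 48 genes under 55 symbols, and 46 of the 16727 genes in the files carried one of them, 29 precursors and 17 receptors. The 2 genes without a row under a listed symbol were Orcokinin and SIFR. Both stood in the files under other symbols, CG13565 and SIFaR, and are described with the further genes. Of the 46 genes, 45 passed the filter on low counts. The exception was Nplp3, listed with 0, 3 and 0 counts in CG1603PBac libraries and 0 counts in each wt library.

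Poly(A) RNA of whole second-instar larvae was sequenced from 3 CG1603PBac and 3 wt samples, which the labels call biological replicates. The study's methods give the same time after egg laying for the larvae of both genotypes. CG1603PBac larvae were homozygous for the PiggyBac transgene PBac[SAstopDSRed]LL06826, which lies in an intron of CG1603, carries stop codons in every frame and was backcrossed to w1118, and the homozygotes were told from heterozygotes by a fluorescent balancer. The wt larvae are given as wild type without a strain name, and the labels name no treatment of either genotype. The mutant was 1 allele whose homozygotes arrest at the second instar, so developmental arrest and loss of CG1603 cannot be told apart. CG1603 itself averaged 28.2 CPM (counts scaled to a common library size with TMM factors) in CG1603PBac libraries and 18.9 CPM in wt libraries, and counts over its exons do not check an insertion that stops translation.

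The files held 27100927 to 36016914 gene counts in CG1603PBac libraries and 33377603 to 34883345 in wt libraries. The share of reads that did not align was 30.9 to 31.8% in CG1603PBac libraries and 8.39 to 9.09% in wt libraries. The summed level of 15 neuron markers was 2288 to 2385 CPM in CG1603PBac libraries and 784 to 881 CPM in wt libraries, and all 15 markers rose. Their median exon length was 9119 bases, beside 1960 for all genes tested. With the trend of fold change on exon length removed all 15 still rose. Their median log2 fold change was then 1.06, against 1.72 with the trend left in, and 8 rose past 2-fold, against 14. Summed CPM of 7 muscle markers was 15460 to 15721 in CG1603PBac libraries and 36892 to 38185 in wt libraries, and all 7 fell. The 7 glial markers summed to 450 to 458 CPM in CG1603PBac libraries and 401 to 442 CPM in wt libraries, with 3 higher and 0 lower. Fat body markers, 7 genes with Fbp1 at 0, summed to 509 to 569 CPM in CG1603PBac libraries and 2074 to 2437 CPM in wt libraries. Most of that sum was 1 gene, Rfabg, at means of 517 CPM in CG1603PBac libraries and 2156 CPM in wt libraries, and of the 5 fat body markers tested 2 fell (Rfabg and Lsp1beta) and 3 did not pass, Lsp1alpha at 1.72, Fbp2 at 1.10 and Lsp1gamma at -0.07 on the log2 scale. The part of these differences in the values below was not tested. In RNA of whole larvae, more cells of a type and more RNA per cell cannot be told apart.

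Neuropeptide and receptor transcripts were mostly higher in CG1603PBac larvae. Of the 45 genes tested, 29 rose, 4 fell and 12 did not pass the threshold (edgeR quasi-likelihood test, Benjamini-Hochberg adjusted p under 0.05 over 11306 genes), against 34.8% of all genes tested that rose and 34.9% that fell. In either direction 33 of the 45 passed, beside 69.7% of all genes. Log2 fold changes are given ± their standard error (SE). The median over the 45 genes was 0.93, beside 0.06 for all genes tested. A rise past 2-fold was seen in 17 genes and a fall past 2-fold in 2, where 17.0% and 15.0% of all genes rose and fell that far. Every CG1603PBac library lay above every wt library for 30 of the genes and below for 4, against 37.5% and 36.3% of all genes tested. These directions hold for levels relative to the whole library: with the libraries scaled to the summed neuron markers, which moved the median of all genes by -1.52, 1 of the 45 genes rose, 20 fell and their median was -0.58, beside 3.87% of all genes higher and 77.7% lower. Scaled by library totals only, which moved the median of all genes by 0.39, 34 rose and 2 fell, beside 50.1% and 22.9% of all genes.

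**Figure D1:**
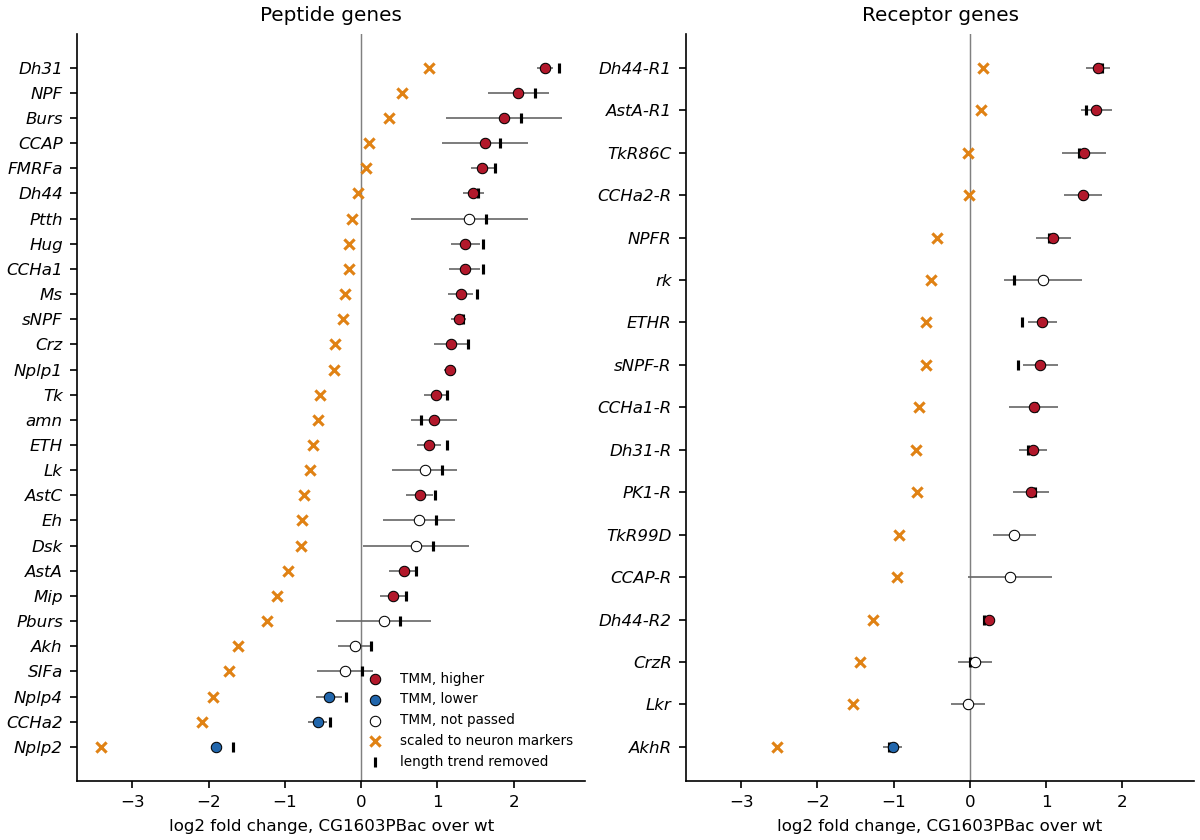
Log2 fold change of CG1603PBac over wt for each of the 45 genes tested, with precursors and receptors in separate panels and bars of 1 standard error; filled circles passed the test and open circles did not, orange crosses mark the value scaled to neuron markers and vertical ticks the value with the length trend removed. Precursors ran between 2.41 for Dh31 and -1.90 for Nplp2, and receptors between 1.68 for Dh44-R1 and -1.01 for AkhR.

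Transcripts were higher in CG1603PBac larvae for 64.3% of the precursors tested and 64.7% of the receptors. Among precursors 18 of 28 rose, 3 fell and 7 did not pass, with a median log2 fold change of 0.97. Among receptors 11 of 17 rose and 1 fell, 5 stayed short of the threshold, and the median was 0.84. With the neuron markers as the scale, 1 precursor was higher and 11 lower, and 0 receptors were higher and 9 lower. The lower genes were 39.3% of precursors and 52.9% of receptors, beside 77.7% of all genes, and 3.87% of all genes were higher. The medians were then -0.55 for precursors and -0.67 for receptors, beside -1.46 for all genes. Precursor transcripts were short, with a median exon length of 1080 bases, against 3214 bases for the receptors. With the trend of fold change on exon length removed across all genes, 30 of the 45 genes rose and 3 fell, beside 32.9% and 34.6% of all genes. The medians were then 1.13 for precursors and 0.69 for receptors, beside 1.06 for the neuron markers. The neuron scaling left the length trend in, with markers of 9119 bases in the median. The part of exon length in the lower calls on that scale was not tested. The difference between precursors and receptors was not tested.

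Summed over the 29 precursors the order of the genotypes was the opposite, 926 to 950 CPM in CG1603PBac libraries and 1779 to 1884 CPM in wt libraries, a sum of which Nplp2 made up the most in wt libraries. Nplp2 and Nplp4 were 2 of the 3 precursors that fell. Without these 2 the sum was 494 to 515 CPM in CG1603PBac libraries and 230 to 238 CPM in wt libraries, so its direction depends on leaving them out. The 17 receptors summed to 260 to 270 CPM in CG1603PBac libraries and 197 to 201 CPM in wt libraries.

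By level per kilobase of exon, which allows genes to be compared, Nplp2 stood first in both genotypes, at 697 ± 35.8 CPM per kilobase in CG1603PBac larvae and 2601 ± 81.2 in wt larvae (SD, n = 3 each). Dh31 ranked 2 in CG1603PBac larvae and 9 in wt larvae, at 58.1 ± 3.07 CPM per kilobase in CG1603PBac larvae and 10.9 ± 1.32 in wt larvae (SD, n = 3 each). Nplp1 ranked 3 in CG1603PBac larvae and 4 in wt larvae, at 44.1 ± 2.64 CPM per kilobase in CG1603PBac larvae and 19.7 ± 1.91 in wt larvae (SD, n = 3 each). In wt larvae the neighbours ETH and CCHa2, at 17.2 ± 3.70 and 17.1 ± 0.968 CPM per kilobase, did not differ beyond their spread. The receptor with the highest level per kilobase was Dh44-R2 in both genotypes, at 28.4 ± 0.371 CPM per kilobase in CG1603PBac larvae and 23.9 ± 1.40 in wt larvae (SD, n = 3 each). At the low end, rk was at 0.578 ± 0.127 CPM per kilobase in CG1603PBac larvae and 0.297 ± 0.253 in wt larvae (SD, n = 3 each), with a spread in wt libraries close to its mean.

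**Figure D2:**
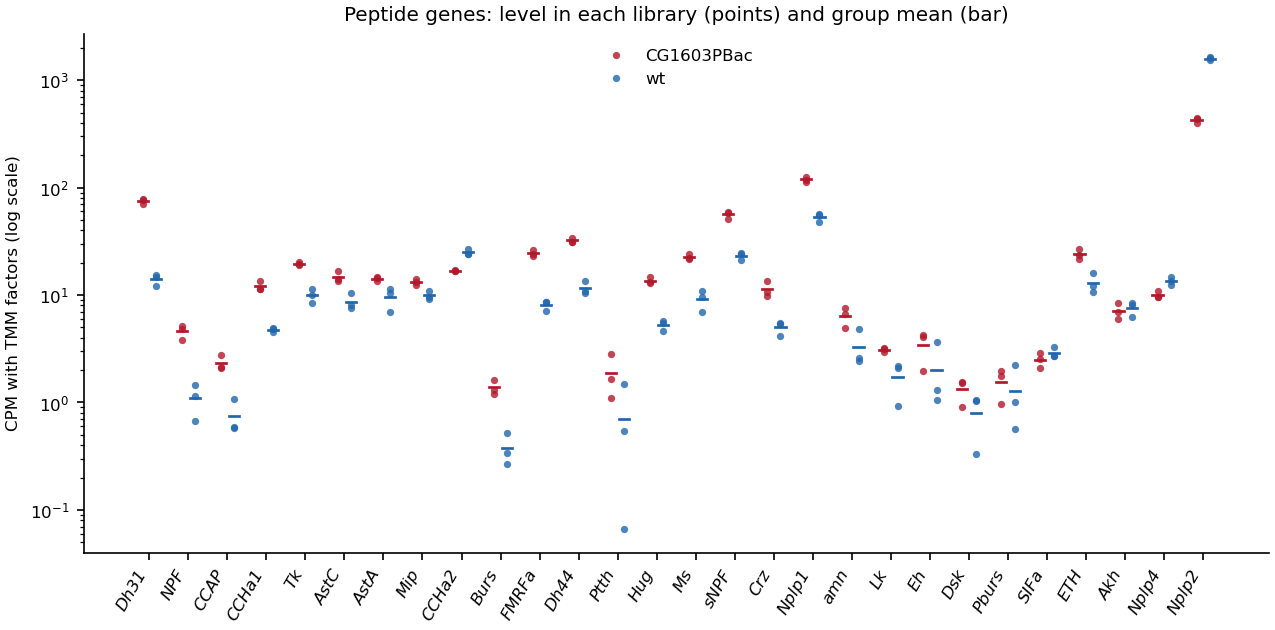
CPM of the 28 neuropeptide precursors tested in each library on a log axis, with CG1603PBac points left of wt points and a short line at each mean. Dh31 showed 70.7 to 77.9 CPM in CG1603PBac libraries and 12.2 to 15.4 CPM in wt libraries, and Nplp2 showed 401 to 442 CPM in CG1603PBac libraries and 1534 to 1632 CPM in wt libraries.

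Of the peptides listed under gut and brain, 8 of the 9 tested rose and 1, CCHa2, fell, beside 34.8% and 34.9% of all genes. Their median log2 fold change was 0.98. Under the neuron scaling 1 rose and 5 (55.6%) fell, beside 77.7% of all genes lower. Dh31, a calcitonin-like diuretic hormone (FBgn0032048, dm6 2L:8491868-8506845, minus strand), had the largest rise of all 45 genes. It was at 70.7, 77.3 and 77.9 CPM in CG1603PBac libraries, against 14.9, 12.2 and 15.4 CPM in wt libraries. All CG1603PBac libraries lay far above all wt libraries, with a log2 fold change of 2.41 ± 0.11 and an adjusted p of 1.21e-14. Dh31 was the one gene of the 45 that was also higher under the neuron scaling, with a log2 fold change of 0.90.

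NPF, neuropeptide F and the fly relative of vertebrate NPY, was at 5.18, 4.81 and 3.79 CPM in CG1603PBac libraries, against 1.16, 1.45 and 0.675 CPM in wt libraries. Its groups did not overlap, and it gave a log2 fold change of 2.06 ± 0.40 and an adjusted p of 9.54e-05. CCHa1, the CCHamide-1 precursor, was at 11.5, 11.4 and 13.6 CPM in CG1603PBac libraries, against 4.91, 4.80 and 4.53 CPM in wt libraries. The wt libraries were close together and all below the CG1603PBac libraries, with a log2 fold change of 1.36 ± 0.20 and an adjusted p of 3.64e-06. CCAP, the crustacean cardioactive peptide used in the ecdysis circuit, was at 2.12, 2.07 and 2.75 CPM in CG1603PBac libraries, against 0.597, 1.07 and 0.574 CPM in wt libraries. Every CG1603PBac library was above every wt library (log2 fold change 1.63 ± 0.56, adjusted p = 0.0142), although without CG1603PBac replicate 3 the call was lost, at a log2 fold change of 1.49.

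Smaller rises were found for tachykinin, Tk (log2 fold change 0.98 ± 0.16, adjusted p = 1.10e-05), for allatostatin C, AstC (log2 fold change 0.77 ± 0.18, adjusted p = 7.74e-04), for allatostatin A, AstA (log2 fold change 0.56 ± 0.19, adjusted p = 0.0123), and for the myoinhibiting peptide Mip (log2 fold change 0.42 ± 0.17, adjusted p = 0.0339). All 4 genes had every CG1603PBac library above every wt library, as did 37.5% of all genes tested. The call of AstA was lost without wt replicate 1, at 0.37. That of Mip was lost without CG1603PBac replicate 2 (0.38), CG1603PBac replicate 3 (0.41), wt replicate 1 (0.39) or wt replicate 2 (0.36), all as log2 fold changes.

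CCHa2, CCHamide-2, a nutrient-dependent peptide that fat body also makes, moved the other way. It was at 16.6, 16.8 and 17.2 CPM in CG1603PBac libraries, against 26.6, 24.2 and 24.1 CPM in wt libraries. Here every CG1603PBac library was below every wt library, with a log2 fold change of -0.57 ± 0.12 and an adjusted p of 3.93e-04. Scaled by library totals only, the log2 fold change of CCHa2 was -0.17 and did not pass. The count ratio of CCHa2 to CCHa1 within a library, which no scaling between libraries can change, was 1.45, 1.47 and 1.26 in CG1603PBac libraries, against 5.42, 5.05 and 5.33 in wt libraries.

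Enteroendocrine markers gave a mixed picture beside these peptides. Their sum over 5 genes was 122 to 126 CPM in CG1603PBac libraries and 61.1 to 66.3 CPM in wt libraries, with 2 genes higher, 0 lower and 3 not passed. The rises were in pros and Rab3, which neurons also use, at log2 fold changes of 1.28 and 0.99. With the length trend removed the pros call was lost, at 0.17, which left 1 of the 5 higher. Poxn, dimm and tap did not pass, at log2 fold changes of -0.06, 1.36 and -0.71, although dimm was called higher by DESeq2 (1.37), with at least 10 counts required in every library (1.40) and with library totals only (1.76), which made 3 of the 5 higher in each. The 7 enterocyte markers summed to 2862 to 2945 CPM in CG1603PBac libraries and 3978 to 4386 CPM in wt libraries, with 2 higher and 5 lower. Their part in the gut peptides was not tested.

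Among the 15 brain and neurosecretory precursors 9 rose, 0 fell and 6 did not pass, beside 34.8% of all genes higher and 34.9% lower. The median log2 fold change was 1.17, and 8 of the rises were past 2-fold, beside 17.0% of all genes. Under the neuron scaling 0 rose, 2 fell and the median was -0.34, beside 77.7% of all genes lower and a median of -1.46. The sum of these precursors was 295 to 307 CPM in CG1603PBac libraries and 126 to 133 CPM in wt libraries. For the gut and brain peptides it was 166 to 179 CPM in CG1603PBac libraries and 80.5 to 86.6 CPM in wt libraries. The difference between these lists was not tested.

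Nplp1, neuropeptide-like precursor 1, a neuronal precursor, was at 113, 118 and 127 CPM in CG1603PBac libraries, against 57.2, 47.4 and 55.3 CPM in wt libraries. The groups were well apart, with a log2 fold change of 1.16 ± 0.08 and an adjusted p of 1.93e-11. sNPF, short neuropeptide F, which promotes feeding, was at 51.5, 58.6 and 59.6 CPM in CG1603PBac libraries, against 21.1, 24.7 and 24.2 CPM in wt libraries. All CG1603PBac libraries exceeded all wt libraries (log2 fold change 1.28 ± 0.10, adjusted p = 4.11e-10). Dh44, the diuretic hormone related to vertebrate CRF, was at 34.3, 31.4 and 31.0 CPM in CG1603PBac libraries, against 13.6, 10.4 and 10.9 CPM in wt libraries. Its groups did not overlap either, with a log2 fold change of 1.47 ± 0.14 and an adjusted p of 3.41e-09.

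FMRFa, the FMRFamide precursor, was at 24.3, 26.0 and 23.0 CPM in CG1603PBac libraries, against 8.63, 8.63 and 7.09 CPM in wt libraries. The separation was complete and the fit gave a log2 fold change of 1.59 ± 0.15 and an adjusted p of 4.87e-09. Ms, myosuppressin, which slows muscle contraction in heart and gut, was at 24.2, 21.8 and 22.1 CPM in CG1603PBac libraries, against 10.9, 7.01 and 9.63 CPM in wt libraries. Each CG1603PBac library was above each wt library, with a log2 fold change of 1.31 ± 0.16 and an adjusted p of 4.18e-07. Hug, the hugin pyrokinin precursor of a feeding circuit, was at 13.04, 13.2 and 14.7 CPM in CG1603PBac libraries, against 5.71, 5.52 and 4.63 CPM in wt libraries. It again showed no overlap, and a log2 fold change of 1.37 ± 0.19 and an adjusted p of 1.86e-06. Crz, corazonin, was at 13.5, 9.90 and 10.6 CPM in CG1603PBac libraries, against 4.15, 5.49 and 5.40 CPM in wt libraries. CG1603PBac replicate 1 was the highest, all wt libraries were below the CG1603PBac libraries, and the test gave a log2 fold change of 1.17 ± 0.22 and an adjusted p of 5.54e-05.

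The memory gene amn, amnesiac, rose with a log2 fold change of 0.96 ± 0.31 and an adjusted p of 0.00857, and the call was lost without CG1603PBac replicate 1, at a log2 fold change of 0.83. Burs, the alpha subunit of bursicon, the hormone of cuticle tanning, had 41, 59 and 49 counts in CG1603PBac libraries, against 8, 15 and 10 counts in wt libraries. Its groups were apart (log2 fold change 1.88 ± 0.76, adjusted p = 0.0330). The Burs call was lost without CG1603PBac replicate 1 (1.91), CG1603PBac replicate 2 (1.74), CG1603PBac replicate 3 (1.97), wt replicate 1 (1.68) or wt replicate 3 (1.80), all as log2 fold changes.

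The brain precursors that did not pass included hormones of the moult. Ptth, the prothoracicotropic hormone that drives ecdysone release, was at 1.09, 2.85 and 1.65 CPM in CG1603PBac libraries, against 0.0664, 1.48 and 0.540 CPM in wt libraries. Its groups overlapped, with a log2 fold change of 1.42 ± 0.77 and an adjusted p of 0.107, on 2 to 103 counts a library. It passed with limma-voom (2.13), library totals only (1.81), a replicate block (1.91) and that block with the length trend removed (2.12). Eh, eclosion hormone, was at 4.25, 4.04 and 1.94 CPM in CG1603PBac libraries, against 1.06, 3.66 and 1.32 CPM in wt libraries. The groups overlapped, since wt replicate 2 was above CG1603PBac replicate 3, with a log2 fold change of 0.76 ± 0.47 and an adjusted p of 0.159, and Eh passed with library totals only (1.16) and with the length trend removed under the block (1.09). Lk, leucokinin, which acts on the Malpighian tubules, was at 3.15, 2.96 and 3.21 CPM in CG1603PBac libraries, against 0.929, 2.21 and 2.09 CPM in wt libraries. Its groups did not overlap, but the test was not passed (log2 fold change 0.83 ± 0.43, adjusted p = 0.0912), and an antisense gene overlapped 93.0% of its exon length. Lk passed as higher with library totals only (1.22), with at least 10 counts in every library (0.87) and with the length trend removed without the replicate block (1.06) or with it (1.12), all bracketed single values being log2 fold changes.

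Pburs, the beta subunit of bursicon, was at 0.966, 1.96 and 1.75 CPM in CG1603PBac libraries, against 0.564, 2.24 and 1.01 CPM in wt libraries. Wt replicate 2 was the highest of all libraries, and the test gave a log2 fold change of 0.30 ± 0.62 and an adjusted p of 0.685. Dsk, drosulfakinin, a satiety peptide related to cholecystokinin, was at 0.901, 1.55 and 1.53 CPM in CG1603PBac libraries, against 0.332, 1.04 and 1.05 CPM in wt libraries. The groups overlapped, with a log2 fold change of 0.72 ± 0.69 and an adjusted p of 0.364. SIFa, SIFamide, was at 2.09, 2.88 and 2.55 CPM in CG1603PBac libraries, against 3.29, 2.69 and 2.74 CPM in wt libraries. No direction was seen across its libraries (log2 fold change -0.21 ± 0.37, adjusted p = 0.627), and a gene on the opposite strand overlapped 21.1% of its exon length.

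The calls of several of these low-count precursors depended on whether wt replicate 2 was kept. Without it Ptth, Eh and Lk passed as higher, at log2 fold changes of 2.61, 1.51 and 1.03. For Lk, wt replicate 2 was close to wt replicate 3, at 2.21 and 2.09 CPM, and wt replicate 1 stood apart at 0.929 CPM. Wt replicate 1 was also the lowest wt library for Ptth (0.0664 CPM) and Eh (1.06 CPM).

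The 2 peripheral gland hormones behaved differently. Akh, adipokinetic hormone, made in the corpora cardiaca to mobilise stored fat and sugar, was at 6.95, 8.52 and 6.03 CPM in CG1603PBac libraries, against 8.36, 8.11 and 6.28 CPM in wt libraries. The groups overlapped almost fully, with a log2 fold change of -0.08 ± 0.22 and an adjusted p of 0.752. ETH, ecdysis triggering hormone of the Inka cells, was at 26.7, 21.9 and 23.5 CPM in CG1603PBac libraries, against 10.8, 16.1 and 12.0 CPM in wt libraries. All CG1603PBac libraries were above all wt libraries (log2 fold change 0.89 ± 0.16, adjusted p = 3.55e-05). An antisense gene overlapped 90.5% of the ETH exon length, and because the strand setting of the counting is not given in the sources used here, reads of the pair may not be told apart.

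The neuropeptide-like precursors Nplp2 and Nplp4 fell. Nplp2 (dm6 3L:13356376-13357223, plus strand) was at 442, 432 and 401 CPM in CG1603PBac libraries, against 1632, 1534 and 1594 CPM in wt libraries. Every CG1603PBac library held far less than every wt library, with a log2 fold change of -1.90 ± 0.04 and an adjusted p of 2.78e-19. Nplp4 had a log2 fold change of -0.42 ± 0.17 and an adjusted p of 0.0322, without overlap of the groups. Its call was lost without CG1603PBac replicate 2 (-0.39), CG1603PBac replicate 3 (-0.39) or wt replicate 2 (-0.37), as log2 fold changes, and it was -0.03 when scaled by library totals only. With the length trend removed the Nplp4 call was also lost, at -0.20 without the replicate block and -0.21 with it.

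**Figure D3:**
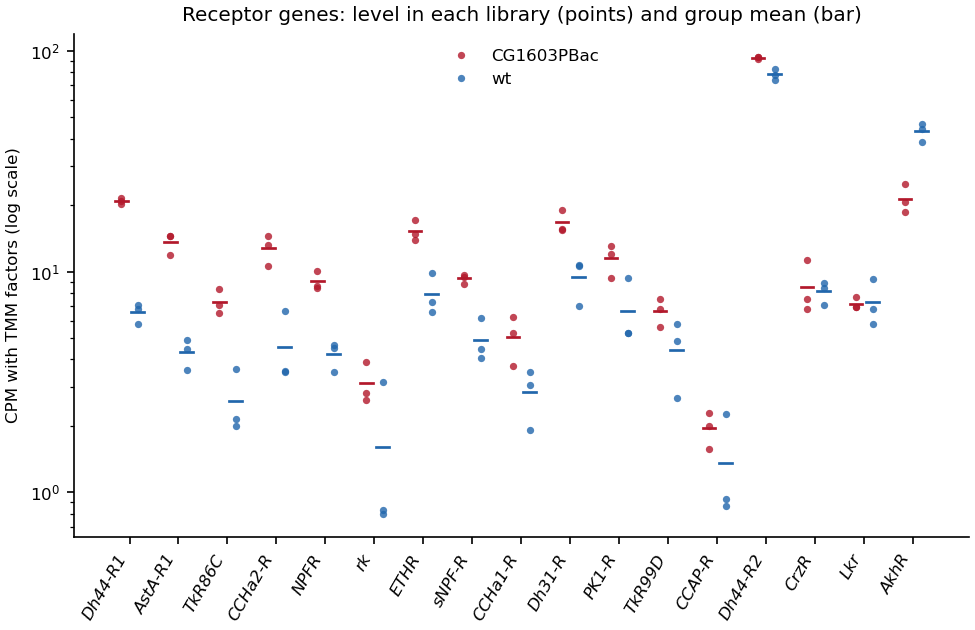
CPM of the 17 neuropeptide receptors in each library on a log axis, with CG1603PBac points left of wt points and a short line at each mean. AkhR is the one receptor with all CG1603PBac points below all wt points, 18.7 to 24.8 CPM in CG1603PBac libraries and 38.6 to 46.7 CPM in wt libraries.

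The receptors of Dh44 and Dh31 rose to unequal extents. Dh44-R1 was at 21.0, 21.7 and 20.3 CPM in CG1603PBac libraries, against 5.78, 7.04 and 6.79 CPM in wt libraries. The groups were far apart, with a log2 fold change of 1.68 ± 0.16 and an adjusted p of 6.14e-09. Dh44-R2, the other receptor of Dh44, was at 94.2, 93.4 and 91.8 CPM in CG1603PBac libraries, against 83.2, 78.0 and 74.0 CPM in wt libraries. Its groups were separate but close (log2 fold change 0.25 ± 0.07, adjusted p = 0.00298), and genes on the opposite strand overlapped 33.2% of its exon length. Within a library the count ratio of Dh44-R1 to Dh44-R2 was 0.222, 0.232 and 0.221 in CG1603PBac libraries, against 0.0694, 0.0903 and 0.0917 in wt libraries. The receptor of Dh31, Dh31-R, rose with a log2 fold change of 0.83 ± 0.18 and an adjusted p of 4.22e-04.

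AstA-R1, a receptor of allatostatin A, was at 11.9, 14.6 and 14.4 CPM in CG1603PBac libraries, against 4.48, 3.59 and 4.90 CPM in wt libraries. No library of one genotype reached the range of the other, with a log2 fold change of 1.66 ± 0.21 and an adjusted p of 3.30e-07. CCHa2-R, the receptor of CCHamide-2, was at 10.6, 14.5 and 13.2 CPM in CG1603PBac libraries, against 3.52, 3.56 and 6.62 CPM in wt libraries. Wt replicate 3 was the highest of the wt libraries but stayed below every CG1603PBac library (log2 fold change 1.48 ± 0.24, adjusted p = 1.54e-05). NPFR, the receptor of neuropeptide F, was at 10.1, 8.41 and 8.60 CPM in CG1603PBac libraries, against 4.65, 4.52 and 3.51 CPM in wt libraries. Its groups did not overlap and it gave a log2 fold change of 1.09 ± 0.23 and an adjusted p of 2.43e-04.

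TkR86C, of the tachykinin receptor family and the receptor of natalisin, was at 8.37, 6.47 and 7.02 CPM in CG1603PBac libraries, against 3.62, 2.14 and 1.99 CPM in wt libraries. All CG1603PBac libraries were above all wt libraries, with a log2 fold change of 1.49 ± 0.29 and an adjusted p of 1.07e-04. TkR99D, the receptor of tachykinin, was at 7.53, 5.61 and 6.76 CPM in CG1603PBac libraries, against 2.69, 5.77 and 4.83 CPM in wt libraries. The groups overlapped through wt replicate 2, with a log2 fold change of 0.58 ± 0.28 and an adjusted p of 0.0721, and it passed, at the log2 fold changes in brackets, without that library (0.81), with limma-voom (0.64) and with library totals only (0.98). sNPF-R, ETHR, PK1-R and CCHa1-R, receptors of short neuropeptide F, ecdysis triggering hormone, pyrokinin and CCHamide-1, rose by less than 2-fold, at log2 fold changes of 0.93, 0.95, 0.80 and 0.84. The CCHa1-R call was lost without CG1603PBac replicate 1 (0.67), CG1603PBac replicate 3 (0.81) or wt replicate 1 (0.62).

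AkhR, the fat body receptor of adipokinetic hormone (dm6 2L:6711286-6716186, minus strand), was the 1 receptor that fell. It was at 24.8, 18.7 and 20.7 CPM in CG1603PBac libraries, against 44.4, 46.7 and 38.6 CPM in wt libraries. The groups did not overlap, with a log2 fold change of -1.01 ± 0.12 and an adjusted p of 1.79e-07, and the call held under each of the 16 other fits. Of the fat body markers 2 of the 5 tested fell too, and their part in the fall of AkhR was not tested. Per library the count ratio of AkhR to Akh was 3.57, 2.20 and 3.43 in CG1603PBac libraries, against 5.31, 5.75 and 6.15 in wt libraries.

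Of the 5 receptors that did not pass, TkR99D is given above. Lkr, the leucokinin receptor, was at 6.89, 6.89 and 7.68 CPM in CG1603PBac libraries, against 5.81, 6.77 and 9.25 CPM in wt libraries. The groups overlapped, with a log2 fold change of -0.02 ± 0.23 and an adjusted p of 0.930. CrzR, the corazonin receptor, was at 11.3, 6.75 and 7.49 CPM in CG1603PBac libraries, against 8.46, 7.08 and 8.85 CPM in wt libraries. CG1603PBac replicate 1 was the highest library and the rest overlapped (log2 fold change 0.06 ± 0.22, adjusted p = 0.813). CCAP-R was at 1.58, 1.99 and 2.28 CPM in CG1603PBac libraries, against 0.929, 0.863 and 2.26 CPM in wt libraries. Wt replicate 3 lay with the CG1603PBac libraries, and the fit gave a log2 fold change of 0.53 ± 0.55 and an adjusted p of 0.405. The bursicon receptor rk, rickets, was at 3.89, 2.63 and 2.82 CPM in CG1603PBac libraries, against 0.830, 0.794 and 3.17 CPM in wt libraries. Again wt replicate 3 reached the CG1603PBac range (log2 fold change 0.96 ± 0.51, adjusted p = 0.101), and rk passed, at the log2 fold changes in brackets, without it (1.92), with limma-voom (1.22) and with library totals only (1.34).

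**Figure D4:**
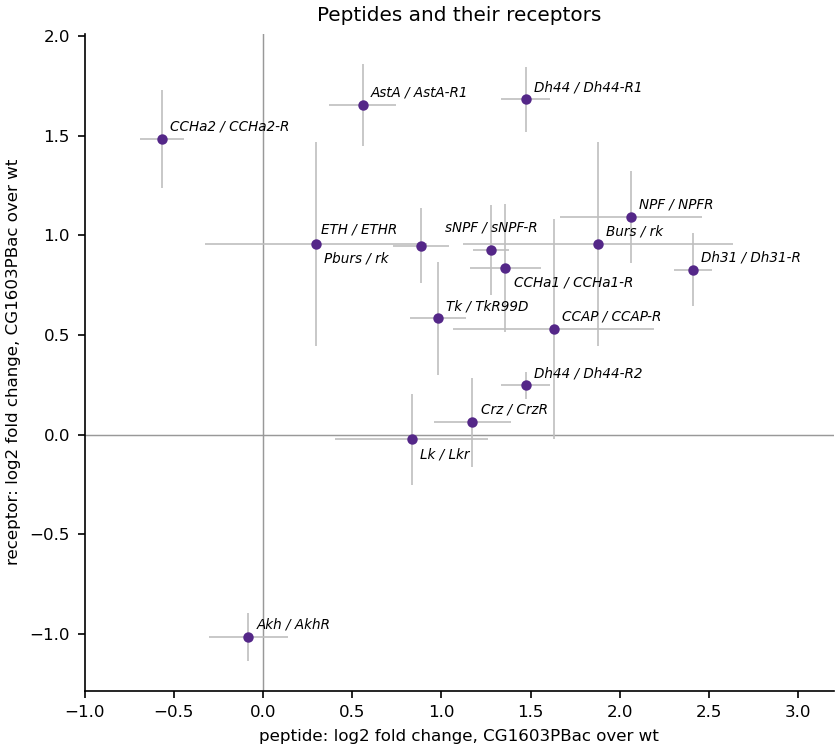
Log2 fold change of the receptor against that of its peptide for 16 peptide and receptor pairs, CG1603PBac over wt, with bars of 1 standard error. CCHa2 and CCHa2-R lie in the upper left, at -0.57 and 1.48, and Akh and AkhR at the bottom, at -0.08 and -1.01.

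Matching 15 peptides with 15 receptors gave 16 pairs. In 8 pairs both partners rose, among them Dh31 with Dh31-R, Dh44 with each of its receptors, and NPF with NPFR. Of the precursors tested 64.3% rose, and of the receptors 64.7%, so pairs with both higher would arise in any matching. Whether partners changed together was not tested. In 4 pairs the peptide rose and the receptor did not pass, namely Tk with TkR99D, Crz with CrzR, CCAP with CCAP-R and Burs with rk. Neither partner passed in 2 pairs, Lk with Lkr and Pburs with rk. In 1 pair, CCHa2 and CCHa2-R, the peptide fell and the receptor rose, and in 1, Akh and AkhR, only the receptor passed, as lower. The count ratio of CCHa2-R to CCHa2 within a library was 0.640, 0.862 and 0.768 in CG1603PBac libraries, against 0.132, 0.147 and 0.275 in wt libraries.

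**Figure D5:**
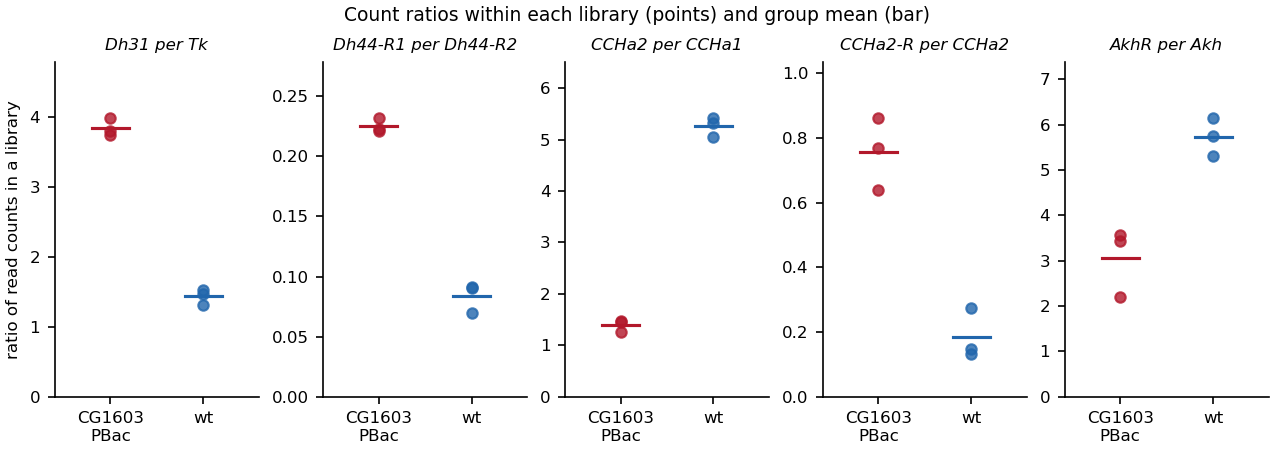
Count ratios of 5 of the 6 pairs described beside it within each library, CG1603PBac left of wt, on linear axes that start at 0. In each panel the points of the genotypes do not overlap; for Dh31 to Tk they were between 3.74 and 3.98 in CG1603PBac libraries and between 1.31 and 1.53 in wt libraries.

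Ratios of counts within a library do not depend on how libraries are scaled to each other. The 6 ratios were chosen after the values were seen, so they describe the libraries. Dh31 to Tk, both gut and brain peptides, stood at 3.74, 3.79 and 3.98 in CG1603PBac libraries, against 1.31, 1.46 and 1.53 in wt libraries. Dh31 to the sum of the neuron markers stood at 0.0309, 0.0324 and 0.0330 in CG1603PBac libraries, against 0.0186, 0.0156 and 0.0175 in wt libraries. In none of the 6 did the genotypes overlap. The exact permutation test (two-sided) gave p = 0.1 for each, the smallest p that 3 against 3 libraries allow. That value follows from the lack of overlap and adds nothing to it.

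Further peptides outside the list were mostly higher relative to the whole library. Under the neuron scaling 0 of them rose and 5 (55.6% of those tested) fell, beside 77.7% of all genes lower. Of 13 such precursors 11 were in the files and 9 were tested. Of these 7 rose, 0 fell and 2 did not pass, beside 34.8% of all genes higher and 34.9% lower. Their median log2 fold change was 0.88. Proc, proctolin, averaged 60.9 ± 1.22 CPM in CG1603PBac libraries and 19.4 ± 0.997 CPM in wt libraries (SD, n = 3 each), with a log2 fold change of 1.65 ± 0.10 and an adjusted p of 1.92e-12. ITP, the ion transport peptide, averaged 72.3 ± 2.57 CPM in CG1603PBac libraries and 25.9 ± 2.45 CPM in wt libraries (SD, n = 3 each), with a log2 fold change of 1.48 ± 0.09 and an adjusted p of 6.58e-12. The smallest rises were those of Gpb5, a glycoprotein hormone subunit, and Capa, at log2 fold changes of 0.64 and 0.76. The Gpb5 call was lost without CG1603PBac replicate 1 (0.65), CG1603PBac replicate 2 (0.60), CG1603PBac replicate 3 (0.69), wt replicate 1 (0.66) or wt replicate 3 (0.39), as log2 fold changes. CG13565, which is Orcokinin, rose by 0.88 on the log2 scale.

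Of 23 further receptors 21 were in the files and 20 were tested, of which 6 rose and 0 fell, 14 stayed short of the threshold, and the median was 0.81. The share that rose was 30.0%, no more than the 34.8% of all genes tested, while 34.9% of all genes fell. SPR, which responds to sex peptide and myoinhibiting peptides, averaged 7.96 ± 0.381 CPM in CG1603PBac libraries and 2.12 ± 0.885 CPM in wt libraries (SD, n = 3 each), with a log2 fold change of 1.91 ± 0.30 and an adjusted p of 8.44e-06. A gene on the opposite strand overlapped 26.8% of the SPR exon length. TrissinR averaged 1.75 ± 0.276 CPM in CG1603PBac libraries and 0.512 ± 0.403 CPM in wt libraries (SD, n = 3 each), with a log2 fold change of 1.77 ± 0.71 and an adjusted p of 0.0322. PK2-R2 and MsR1, receptors of pyrokinin and myosuppressin, had log2 fold changes of 0.75 and 1.17. SIFaR, the receptor of SIFamide, had 87, 122 and 144 counts in CG1603PBac libraries, against 80, 0 and 74 counts in wt libraries. Wt replicate 2, at 0, stood apart from the other wt libraries, and the test was not passed (log2 fold change 0.91 ± 0.84, adjusted p = 0.359). Under the neuron scaling 0 further receptors rose and 8 (40.0% of those tested) fell, beside 77.7% of all genes lower. The TrissinR call was lost without CG1603PBac replicate 1 (1.68), CG1603PBac replicate 2 (1.89), CG1603PBac replicate 3 (1.73), wt replicate 1 (1.38) or wt replicate 3 (1.57), all as log2 fold changes. With wt replicate 2 left out, 10 further receptors rose.

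Genes that process peptides and release them were also mostly higher, 11 of 13, with 1 lower and 1 not passed. Of all genes 34.8% were higher and 34.9% lower. Their median log2 fold change was 0.86. Under the neuron scaling 1 of them rose and 9 (69.2%) fell, beside 77.7% of all genes lower. These transcripts had a median exon length of 3991 bases, and with the length trend removed 9 rose, beside 32.9% of all genes. Fur1 and Fur2 then lost their calls, at log2 fold changes of -0.17 and -0.020. IA-2 was then at 1.40 and svr at 0.18, against 0.83 for svr with the trend left in. IA-2, a dense-core vesicle protein, averaged 641 CPM in CG1603PBac libraries and 145 CPM in wt libraries, with a log2 fold change of 2.14 ± 0.06 and an adjusted p of 1.57e-17, and it was the 1 gene of this list that rose under the neuron scaling. Sytbeta, a synaptotagmin, averaged 13.6 ± 2.11 CPM in CG1603PBac libraries and 4.90 ± 1.31 CPM in wt libraries (SD, n = 3 each), with a log2 fold change of 1.47 ± 0.22 and an adjusted p of 5.49e-06. amon, the prohormone convertase that cuts the precursors, had a log2 fold change of 1.14. Of the 3 enzymes of C-terminal amidation, Phm and Pal2 rose, at log2 fold changes of 0.22 and 0.76, and Pal1 fell, at -0.36, which was 0.031 and no longer called when scaled by library totals only. An opposite-strand gene overlapped 25.7% of the Pal2 exon length. dimm, the transcription factor of peptidergic cells, did not pass in edgeR (log2 fold change 1.36 ± 0.61, adjusted p = 0.0524) and passed in the 3 alternatives given with the enteroendocrine markers.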

How the data were processed

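Libraries were made by poly(A) capture from 1 µg of total RNA of whole larvae, and the submitters' processing notes name FastQC, the aligner STAR, the counter HTSeq and the build dm6. What the authors deposited are raw counts, 1 value a gene and library; the gene annotation and the strand setting of the counting are not given in the sources used here. The categories that name no gene, 19.7 to 20.5% of aligned reads in CG1603PBac libraries and 12.3 to 13.4% in wt libraries, entered neither library sizes nor tests.

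Counts of CG1603PBac and wt larvae were compared with edgeR 4.0.16 in R 4.3.3 (TMM factors, filterByExpr with a minimum count of 10 and a total of 15, robust quasi-likelihood F test), with Benjamini-Hochberg adjustment over 11306 genes and a threshold of 0.05. The standard error was the log2 fold change divided by the square root of F. The fit was tested on simulated data. Alternatives were DESeq2 1.42.0, limma-voom (limma 3.58.1), DESeq2 size factors, library totals only, scaling to the summed neuron markers, no filter, at least 10 counts in every library, a replicate block, removal of the loess trend (span 0.5) of fold change on exon length, with and without the block, leaving out each library in turn, and a 2-fold limit on calls.

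Of the 16727 genes, 12512 matched the Ensembl annotation of dm6 by current symbol, 4062 by an older symbol and 153 not at all. Coordinates, exon lengths and overlaps come from that annotation. Per-library values are given for genes past the threshold by over 2-fold and genes not past it, both at a mean of at least 1 CPM, and for genes at a mean of 20 CPM or more. Values of Burs counts, ETH and Nplp3 were added after they were seen. Of each further list the 2 highest and the 2 lowest changes past the threshold are named, and others named there were picked after their values were seen. The genes and lists were chosen with earlier results of these data known. Pairs of replicate libraries differed beyond sampling noise, with a chi-square of 7.46 to 17.0 per gene.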

Additional observations from a re-analysis of the deposited data

How the results depend on the processing

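With the libraries scaled to the summed neuron markers, 1 precursor was higher and 11 lower, 0 receptors were higher and 9 lower, 0 further peptides were higher and 5 lower, 0 further receptors were higher and 8 lower, and 1 processing gene was higher and 9 lower. Of all genes 3.87% were higher and 77.7% lower on that scale. Genes called higher with TMM and lower on the neuron scale were AstA (log2 fold change -0.96), AstC (-0.75), Mip (-1.10), Tk (-0.53), Nplp1 (-0.35), ETH (-0.63), sNPF-R (-0.58), ETHR (-0.57), Dh31-R (-0.70), Dh44-R2 (-1.27) and PK1-R (-0.70). Others called higher with TMM changed sign but did not pass on the neuron scale: CCHa1 (-0.16), Dh44 (-0.046), sNPF (-0.24), Hug (-0.16), Crz (-0.34), amn (-0.56), Ms (-0.21), CCHa1-R (-0.67), CCHa2-R (-0.017), NPFR (-0.43) and TkR86C (-0.028). CrzR (-1.44) and TkR99D (-0.93) changed sign too, not passed with TMM and called lower on the neuron scale. The sign also changed for genes called in neither fit, Lk (-0.68), Ptth (-0.12), Pburs (-1.24), Eh (-0.77), Dsk (-0.79), CCAP-R (-0.96) and rk (-0.51). The scale itself sets this turn, since the median of all genes moved by -1.52. Library totals only moved that median by 0.39 and gave 1 precursor lower, 12 further receptors higher and 0 processing genes lower; calls over all genes were then 68.7% higher, against 49.9% with TMM and 4.74% with the neuron scaling. Without a filter the median moved by 0.15. With the length trend removed 9 processing genes were higher, beside 32.9% of all genes. With a 2-fold limit, 12 precursors were higher and 1 lower, 5 receptors higher, 3 further peptides higher, and 5 processing genes higher and 0 lower. Of all genes 17.0% were higher and 15.0% lower by that limit. The cause of these moves other than by scale or limit was not tested.

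Leaving out each library in turn gave 15 to 20 precursors higher and 2 to 3 lower, 10 to 12 receptors higher, 5 to 10 further receptors higher (10 without wt replicate 2) and 0 to 1 lower (1 without wt replicate 3). Same-numbered libraries did not deviate together (correlations of -0.02 to 0.01), so the numbers are not taken as pairs. With a replicate block 18 precursors were higher and 3 lower, 11 receptors were higher and 1 lower, 7 further peptides were higher and 0 lower, 6 further receptors were higher and 0 lower, and 11 processing genes were higher and 1 lower. Of single genes, Ptth passed under the block at a log2 fold change of 1.91 and Burs no longer did, at 1.91. In all, 32 of 45 genes tested kept their call in every alternative other than the neuron scaling. Ptth had 2 to 103 counts a library, and the standard error of its log2 fold change was 0.77.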
